A study of Pseudotaxus chienii with 9 samples.

Results

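Leaves of Pseudotaxus chienii, a small conifer of the yew family, were treated with methyl jasmonate (MeJA), and 47 of the 26827 genes in the expression table set the leaves at 1 day of MeJA apart from all other libraries. The polyA RNA of 9 leaf libraries was sequenced, 3 from leaves after 1 day of MeJA (day 1), 3 from leaves after 2 days of MeJA (day 2) and 3 labelled CK, the control without a MeJA label. The genes were chosen by their values in FPKM, fragments scaled to gene length and to library size. A gene had to reach 3 FPKM in at least 1 library, and its lowest day 1 value had to exceed 1.3 times the highest value at day 2 and in CK, or its highest day 1 value times 1.3 had to lie below their lowest. Genes described as heat shock proteins or chaperones were set aside, which removed 7 genes. Of the 47 genes, 13 were higher at day 1 and 34 were lower, out of 16842 genes that reached 3 FPKM.

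Methyl jasmonate is a volatile form of the wound and defence hormone jasmonate. In plants it is converted to the active conjugate with isoleucine, which leads to the destruction of JAZ repressors and frees transcription factors such as MYC2 to switch on defence and secondary metabolism. Enzymes that oxidise the conjugate then lower the signal again. In yews and their relatives the hormone is known as an inducer of taxane biosynthesis. None of the 47 genes carried a description for taxanes, of which the table held 108 genes, or for other terpenes. Only 47 of 16842 genes met the rule, and 28 of the 47 have no informative description, so this absence says little.

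The labels are silent on separate plants for the 3 libraries of a group, on mock treatment of CK and on its sampling time. The p-values therefore measure only the spread between libraries, and that spread may be technical. Total counts were 48893949 to 58703021 per library, and 23194 to 24252 genes had a count above 0. Library 2 of day 1 and library 2 of day 2 stood apart in genes named for nuclear photosynthesis proteins, which mark leaf tissue. None of these 21 genes was at 0 in all libraries, and their summed FPKM ran from 1248 to 9099 at day 1, from 1108 to 5098 at day 2 and from 11920 to 14579 in CK, with the lowest value of each treated group in its library 2. The summed FPKM of 52 genes of woody tissue ran from 341 to 409 at day 1, from 306 to 463 at day 2 and from 192 to 206 in CK, and 74 genes of reproductive and seed tissue ran from 1451 to 3366, from 1312 to 2930 and from 658 to 859 in the same order. Of 7 marker lists, with genes of the plastid genome, guard cells, wax and cutin, and viruses, fungi or insects as the others, 0 had day 1 sums outside the range of the 6 other libraries. In RNA of whole leaves, fewer cells of a type and less RNA per cell cannot be told apart.

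How far the 47 genes stand apart from day 2 and from CK is set by the rule, so the counts in the rest of this paragraph follow from the choice of genes and are no test of them. In edgeR's quasi-likelihood fit 24 of the 46 genes that passed the filter on low counts had an adjusted p under 0.05 at day 1 against CK, 8 higher and 16 lower, where over all 22384 genes 5.34% did, 4.34% higher and 1.00% lower. The 24 became 41 with DESeq2, 4, 6 and 3 without CK libraries 1, 2 and 3, 11 without day 1 library 3 and 15 without day 2 library 3. Between day 2 and day 1 edgeR called 0 of the 46 genes and 0 of all genes (0% called), with a lowest adjusted p among the 46 of 0.362. At an unadjusted p under 0.05 the counts were 44 of the 46 and 949 of all genes, DESeq2 called 19 of the 46 and 72 of all genes, and limma on log2(FPKM + 1) called 0 and 0.

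The same rule put on the other groups gave 34 genes higher and 13 lower at day 2, and 815 higher and 1330 lower in CK. With counts scaled by TMM factors in place of FPKM the rule found 49 genes at day 1, 21 higher and 28 lower, and 38 of these were among the 47. The 9 genes that were not all lay on the lower side. Day 1 library 2 had the highest day 1 value in 9 of the 13 higher genes and the lowest in 19 of the 34 lower ones. Its median distance on the log2 scale (pseudocount 0.1) from the mean of day 2 and CK was 2.28 over the higher genes, beside 1.84 and 1.37 in day 1 libraries 1 and 3, and -1.67 over the lower ones, beside -1.21 and -1.34. Without day 1 library 2 the rule found 119 genes, 71 higher and 48 lower, including 45 of the 47.

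Among the 13 genes higher at day 1, 4 were annotated to hormones or defence. CYP94P7 (PchiChr9G254860, chromosome 9, block 1, 174854525 to 174855871) carries the name of a cytochrome P450 of the family whose members in Arabidopsis oxidise the active jasmonate conjugate, although its Gene Ontology (GO) terms name the spliceosome. It had 6.54, 20.7 and 6.45 FPKM at day 1, 3.92, 1.41 and 3.99 FPKM at day 2 and 0.0230, 0.679 and 0.0611 FPKM in CK. The 3 groups did not overlap, and day 1 library 2 was the highest of the 9. The mean was 44.2-fold higher at day 1 than in CK and 3.62-fold higher at day 1 than at day 2. At day 2 it was 12.2-fold that of CK, or 3.67 on the log2 scale with an SE of 1.17, which did not pass (edgeR adjusted p = 0.110). It was the only member among 48 genes described as jasmonate genes, of which 36 were tested, and 4 of these rose and 1 fell at day 2 against CK, where over all genes tested 4.09% rose and 0.858% fell.

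PchiChr3G076630 (chromosome 3, block 1, 362583974 to 362584776) has the KEGG orthology entry of SAUR proteins, small proteins that act in auxin-driven growth, and GO terms for the response to auxin. It had 2.83, 3.52 and 6.17 FPKM at day 1, 1.93, 0.834 and 1.78 FPKM at day 2 and 0.772, 0.782 and 0.819 FPKM in CK. The CK libraries lay close together, and all day 2 libraries were above them, day 2 library 2 by little. PchiChr5G131260, with GO terms for the defence response and ADP binding and an entry in the KEGG pathway of plant-pathogen interaction, had 17.9, 43.3 and 12.8 FPKM at day 1, 8.57, 6.31 and 4.74 FPKM at day 2 and 4.38, 4.01 and 3.07 FPKM in CK. The spread was widest at day 1, through library 2. The gene described as hypersensitive-induced reaction 1 protein, of a membrane protein family that acts in the cell death response to pathogens (PchiChr2G047930), had 26.8, 25.3 and 27.5 FPKM at day 1, 13.8, 5.09 and 18.2 FPKM at day 2 and 16.0, 15.6 and 16.9 FPKM in CK. Its day 1 libraries agreed closely, and its day 2 libraries lay on either side of CK. These hormone and defence genes were grouped by the annotation of the chosen genes, so no share over all genes was available. Annotation to defence was not confined to the higher side. The plant-pathogen pathway held 1 higher and 1 lower gene (PchiChr9G270220), and 1.54% of genes that reached 3 FPKM. Homoserine kinase (PchiChr6G182440), with a GO term for the defence response, was lower.

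Another 4 of the higher genes were annotated to transport or membranes. PchiChr6G174780 (chromosome 6, block 1, 404043190 to 404051018), with a GO term for sulfate transport across membranes, was the most abundant of the 13. It had 76.8, 61.4 and 69.6 FPKM at day 1, 45.0, 40.6 and 43.8 FPKM at day 2 and 10.9, 9.63 and 8.73 FPKM in CK. All 3 groups were tight and apart from each other, and day 2 lay nearer to day 1 than to CK. PchiChr6G168040, with terms for transition metal binding and transport, had the same order at a lower level: 5.49, 3.65 and 5.57 FPKM at day 1, 2.01, 2.65 and 1.44 FPKM at day 2 and 0.756, 1.26 and 0.678 FPKM in CK. The gene described by a BAR domain, a fold that binds curved membranes (PchiChr3G093380), averaged 35.2 ± 2.59 FPKM at day 1, 17.5 ± 4.93 FPKM at day 2 and 12.2 ± 1.53 FPKM in CK (SD, n = 3 in each group). PchiChr4G106770, which carries only a term for an integral membrane protein, rested mostly on 1 library, with counts of 24, 393 and 19 at day 1, 0, 0 and 6 at day 2 and 0, 4 and 0 in CK.

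The other 5 higher genes were annotated to metabolism. Quinolinate synthase, which makes a precursor of NAD in the chloroplast (PchiChr1G033060), had 19.1, 56.1 and 15.3 FPKM at day 1, 9.28, 7.78 and 10.9 FPKM at day 2 and 10.9, 8.65 and 8.41 FPKM in CK. Day 2 and CK overlapped, at similar means, and day 1 library 2 stood above the other day 1 libraries. The gene described as an alpha/beta hydrolase, with the enzyme number of an acylglycerol lipase (PchiChr6G183360), had 43.6, 44.9 and 36.5 FPKM at day 1, 23.2, 9.95 and 20.5 FPKM at day 2 and 19.8, 22.3 and 21.7 FPKM in CK. Here the day 1 libraries agreed, and the day 2 libraries lay on either side of CK. The gene described as beta-glucosidase 18-like, of the enzymes that release glucose from conjugates (PchiChr1G022200), had 13.7, 27.1 and 11.8 FPKM at day 1, 2.14, 7.36 and 4.12 FPKM at day 2 and 1.88, 3.74 and 1.18 FPKM in CK. Library 2 was the highest in each of the 3 groups.

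PchiChr3G091600 has enzyme numbers of glutathione and ascorbate metabolism but GO terms for phosphatidylcholine metabolism, so its role is unclear, and it averaged 4.39 ± 2.02 FPKM at day 1, 1.83 ± 0.341 FPKM at day 2 and 0.953 ± 0.276 FPKM in CK (SD, n = 3 in each group). PchiChr3G089420 (chromosome 3, block 1000000001, 223209251 to 223210377), with GO terms of 2-alkenal reductase, an enzyme type that detoxifies reactive carbonyls, had counts of 46, 420 and 4 at day 1 and 0 in all 6 other libraries. Against a floor of 3 counts over a group, which covers counting error only, it was at least 156-fold higher at day 1 than at day 2 and at least 163-fold higher at day 1 than in CK. Most of its counts came from day 1 library 2, and it was the 1 gene of the 47 that did not pass the filter of the count test.

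**Figure D1:**
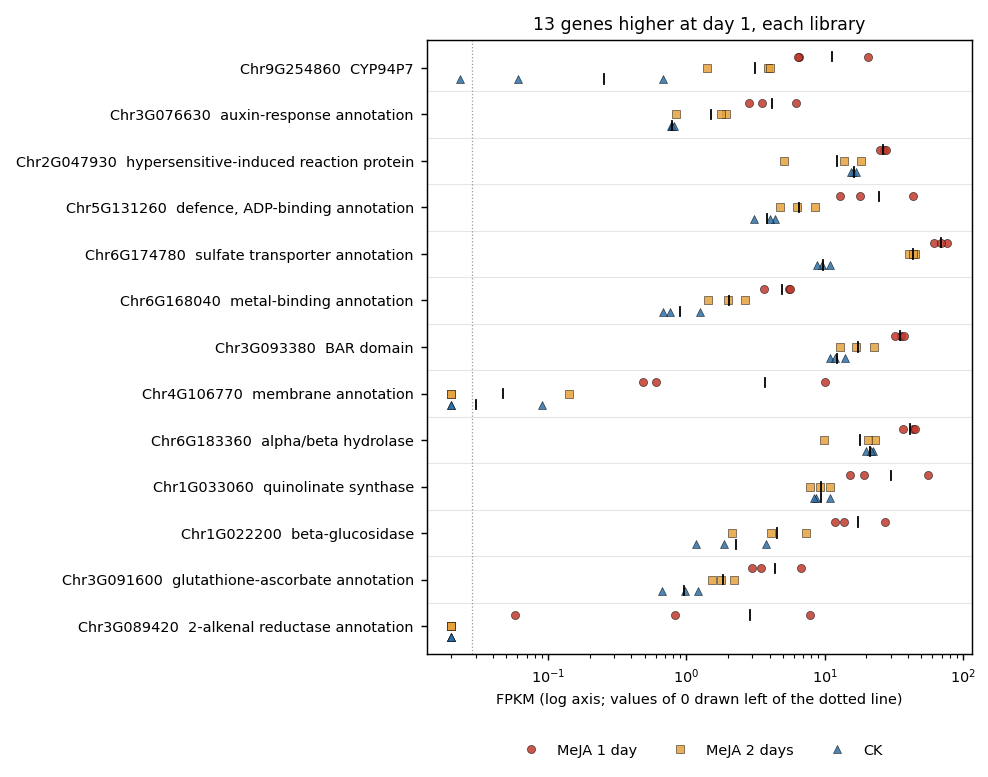
The 13 genes higher at day 1, each with its FPKM in 3 libraries of MeJA 1 day (circles), MeJA 2 days (squares) and CK (triangles) on a log axis. Short black lines are group means, values of 0 are drawn left of the dotted line, and gene names lack their prefix Pchi. The red circles lie right of all other symbols in each row, as the rule requires, and the squares lie right of all triangles for 6 of the 13 genes.

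Among the 34 genes lower at day 1, the group that shared most annotation was that of heat and protein folding. Removing genes by description left 8 of the 34 with GO terms for the response to heat, for protein folding or for binding unfolded proteins (23.5%), against 1.60% of genes that reached 3 FPKM and 0 of the 13 higher genes. This set of terms was chosen after the annotation had been seen and was not tested. All 7 genes set aside by description were on the lower side too and carried these terms. With members and these 7 included, 312 genes with the terms were tested. At day 1 against CK edgeR called 7 of the 312 higher and 9 lower, where over all genes tested 4.34% rose and 1.00% fell. Their median log2 fold change was -0.16, against 0.03 over all genes, with 115 positive and 197 negative estimates. Of the 34 lower genes 21 have no informative description, and 6 of these have no GO or KEGG entry either.

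The 4 lower genes with the KEGG orthology entry of HSP20 encode small heat shock proteins, which hold unfolding proteins in solution until larger chaperones refold them. PchiChr8G227420 (chromosome 8, block 1, 199677177 to 199678217) had 16.1, 16.0 and 20.7 FPKM at day 1, 70.3, 86.0 and 156 FPKM at day 2 and 65.1, 57.8 and 78.1 FPKM in CK. The day 2 and CK libraries overlapped, and all 3 day 1 libraries were low, as the rule requires. The mean at day 1 was 0.263 of that in CK and 0.169 of that at day 2. PchiChr8G227430 (chromosome 8, block 1, 199828379 to 199829440), the next gene in the table, 150162 bases on, had 69.2, 37.9 and 43.4 FPKM at day 1, 136, 180 and 137 FPKM at day 2 and 94.1, 102 and 109 FPKM in CK. Its day 2 libraries were all above CK and its day 1 libraries all below. These were the only 2 of the 47 genes within 10 rows of each other in the table. Their sequences were not compared, and whether similar copies affected their counts was not tested. PchiChr8G227430 was also among the 9 genes that missed the rule with TMM scaling.

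The remaining small heat shock genes lay farther off. PchiChr4G098420 (chromosome 4, block 1, 88244107 to 88245423) had 13.0, 15.1 and 16.3 FPKM at day 1, 37.3, 56.3 and 38.7 FPKM at day 2 and 48.3, 51.6 and 36.1 FPKM in CK. PchiChr8G231610 (chromosome 8, block 1, 365217489 to 365218488) had 4.66, 3.13 and 2.82 FPKM at day 1, 13.9, 21.9 and 9.77 FPKM at day 2 and 11.9, 9.47 and 11.8 FPKM in CK. In both genes the day 2 libraries overlapped CK. Day 2 against CK, the log2 fold changes of the 4 genes were 0.75 (SE 0.29), 0.71 (SE 0.28), 0.11 (SE 0.26) and 0.61 (SE 0.37), with edgeR adjusted p values of 0.169, 0.171, 0.826 and 0.343.

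The other 4 heat and folding genes are annotated to other machinery. A gene of the ClpA/B family, ring-shaped proteins that pull aggregated or damaged proteins apart (PchiChr12G335650), averaged 36.4 ± 5.95 FPKM at day 1, 76.0 ± 11.7 FPKM at day 2 and 70.0 ± 7.20 FPKM in CK (SD, n = 3 in each group). PchiChr12G327600, with GO terms for a transcription coactivator and for the response to heat, had 19.5, 18.9 and 22.0 FPKM at day 1, 47.4, 70.4 and 69.6 FPKM at day 2 and 51.0, 76.3 and 69.3 FPKM in CK. In these genes the day 2 and CK libraries overlapped. PchiChr3G076840, annotated to protein folding, had 72.3, 46.4 and 68.3 FPKM at day 1, 122, 126 and 112 FPKM at day 2 and 131, 197 and 152 FPKM in CK. PchiChr3G084720, annotated to binding unfolded proteins, averaged 25.9 ± 1.85 FPKM at day 1, 40.8 ± 3.59 FPKM at day 2 and 77.6 ± 11.1 FPKM in CK (SD, n = 3 in each group). In this last pair the day 2 libraries all lay between the other groups, and the log2 fold change of PchiChr3G084720 at day 2 against CK was -0.80 (SE 0.19, edgeR adjusted p = 0.0550).

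**Figure D2:**
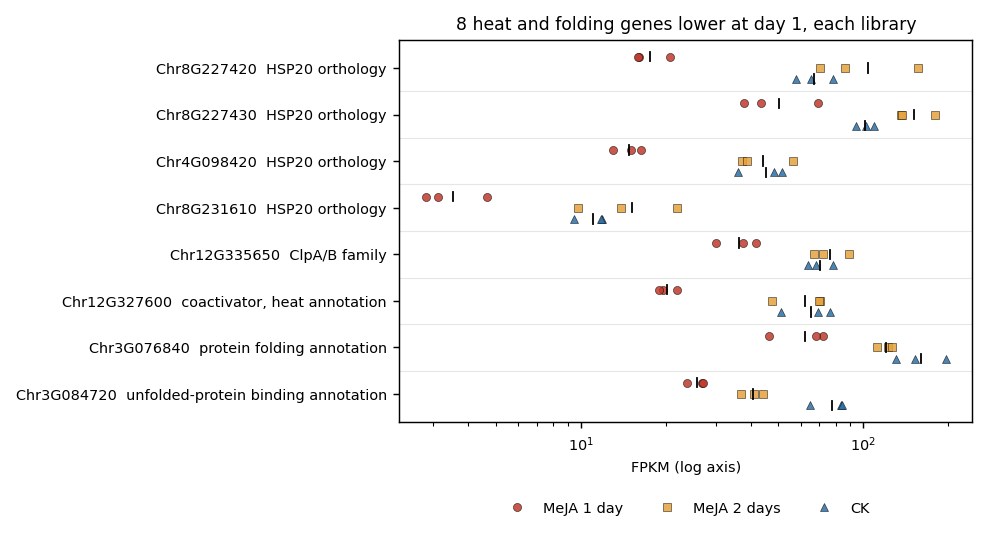
The 8 genes lower at day 1 with GO terms for heat or protein folding, each with its FPKM in 3 libraries of MeJA 1 day (circles), MeJA 2 days (squares) and CK (triangles) on a log axis. Short black lines are group means, and the squares and triangles overlap or lie near each other for most genes, while the squares of PchiChr3G076840 and PchiChr3G084720 lie left of all their triangles.

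The HSP20 orthology entry is held by 43 genes of the table, of which 31 reached 3 FPKM. In 11 of the 31 all day 1 libraries were below all day 2 and CK libraries without the margin of 1.3, against 1.29% of all genes that reached 3 FPKM, and in 18 of the 31 they were below CK, against 23.5%. The 4 members and 3 of the genes set aside are among the 11, so these counts are a description. Day 1 library 2 was the lowest of the 9 libraries in 23 of the 31. The median log2 ratio of the 31 genes to the CK mean was -0.59, -2.24 and -0.82 in libraries 1, 2 and 3 of day 1. At day 2 it was -0.28, 0.11 and -0.09. Against the CK mean, the CK libraries themselves had -0.11, -0.18 and 0.21. The family's low values at day 1 were deepest in the same library whose photosynthesis genes were lowest in its group, and the part of that library in the result was not tested. The 4 family members among the 47 were low in all 3 day 1 libraries because the rule requires it, so they do not bear on that question.

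**Figure D3:**
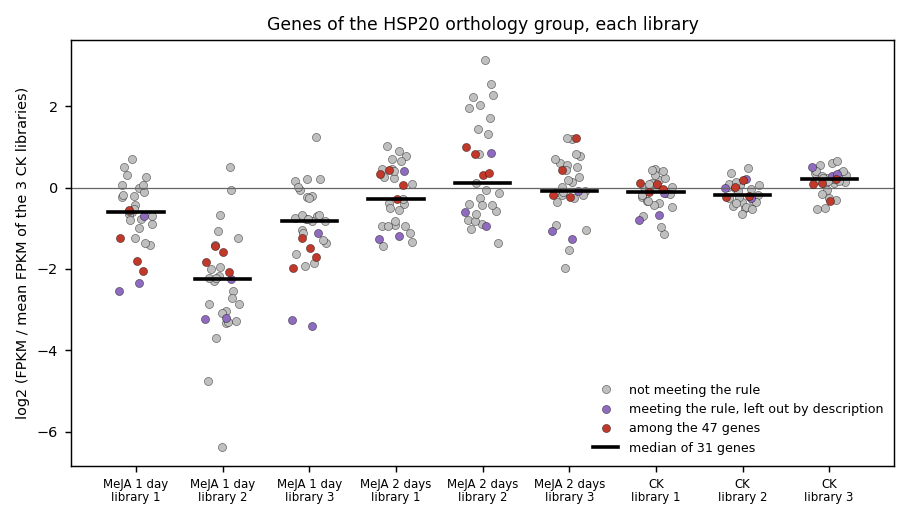
The log2 ratio of FPKM to the mean FPKM of the 3 CK libraries for 31 genes of the HSP20 orthology entry in each library, with MeJA 1 day at the left, MeJA 2 days in the middle and CK at the right. Black bars are medians, which reach -2.24 in library 2 of MeJA 1 day and lie between -0.82 and 0.21 in the others, and red points are the 4 genes among the 47.

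Genes annotated to cutin, wax and other lipids made up 7 of the 34 lower genes, a group with no share over all genes. GO terms for fatty acids or sphingolipids were carried by 5 of the 34 (14.7%) and 0 of the higher genes. Of all genes that reached 3 FPKM, 1.31% carried them. These terms were chosen after the annotation had been seen. Among the higher genes, PchiChr6G183360 has a GO term for lipid metabolism and PchiChr3G091600 one for phosphatidylcholine metabolism. The cuticle of leaves is a polyester of hydroxylated fatty acids covered with wax, and suberin is a related polymer with bound phenolics. PchiChr10G295040 (chromosome 10, block 1000000001, 148847157 to 148848930) has the enzyme number of an acyltransferase that adds ferulate to hydroxylated fatty acids, and also GO terms for hydroxycinnamoyl transfer in pollen wall formation. It had 0.0452, 0.215 and 0.242 FPKM at day 1, 0.854, 0.596 and 2.63 FPKM at day 2 and 7.46, 5.31 and 2.39 FPKM in CK. The mean at day 1 was 0.0331 of that in CK, and day 2 reached CK only in its library 3. The gene described as cytochrome P450 86B1-like, whose namesake in Arabidopsis hydroxylates very long fatty acids for suberin (PchiChr5G136810, chromosome 5, block 1, 404510629 to 404512020), had 1.10, 0.521 and 0.960 FPKM at day 1, 3.50, 2.02 and 2.17 FPKM at day 2 and 4.29, 7.64 and 3.10 FPKM in CK. Its day 2 and CK libraries overlapped through 1 library of each group.

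Both genes belong to the KEGG pathway of cutin, suberin and wax, which holds 90 genes and had 70 tested. The summed FPKM of the pathway were 534, 218 and 725 at day 1, 516, 2056 and 1068 at day 2 and 605, 734 and 579 in CK, so that its total was not low in all day 1 libraries. At day 1 against CK, members included, 45 of the 70 had negative estimates (median log2 fold change -0.50, against 0.03 over all genes). In edgeR 6 fell and 1 rose, where over all genes tested 1.00% fell and 4.34% rose. The 6 include both members, which the rule chose on this comparison. The pathway was picked after the annotation had been seen, so these counts are a description. At day 2 against CK 31 of the 70 had positive and 39 negative estimates (median log2 fold change -0.16, against 0.03 over all genes). A separate list of 122 genes with wax and cutin descriptions, of which 86 were tested, showed no such lean at day 1 against CK. It had 43 positive and 43 negative estimates (median log2 fold change -0.01). In edgeR 4 of these rose and 0 fell.

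The most abundant of all 47 genes was PchiChr9G251240 (chromosome 9, block 1, 93116556 to 93120922), annotated to the metabolism of very long-chain fatty acids. It had 167, 103 and 180 FPKM at day 1, 331, 239 and 327 FPKM at day 2 and 373, 318 and 355 FPKM in CK. Library 2 was the lowest of its group in all 3 groups, and day 2 overlapped CK. A gene described as a GDSL esterase/lipase, of a large family of lipid and ester hydrolases (PchiChr11G317190), had 1.72, 0.159 and 0.706 FPKM at day 1, 5.19, 2.75 and 2.46 FPKM at day 2 and 3.10, 5.19 and 6.64 FPKM in CK. PchiChr8G239090, with GO terms of a dihydroceramidase, which frees the long-chain base of sphingolipids, had 1.06, 0.320 and 1.02 FPKM at day 1, 5.34, 1.47 and 4.01 FPKM at day 2 and 4.39, 2.43 and 3.69 FPKM in CK. The day 1 values of the last 2 genes spread widely around library 2, their lowest. A gene described as an acyl-lipid desaturase, which puts double bonds into fatty acyl chains of lipids (PchiChr8G247470), averaged 1.48 ± 0.385 FPKM at day 1, 2.88 ± 0.253 FPKM at day 2 and 3.24 ± 0.336 FPKM in CK (SD, n = 3 in each group).

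PchiChr6G186030, described as fatty-acid-binding protein 2, was a borderline member. It had 0.203, 0.395 and 0.380 FPKM at day 1, 0.714, 4.43 and 0.515 FPKM at day 2 and 1.80, 1.20 and 0.745 FPKM in CK. It reached 3 FPKM only through day 2 library 2, and its lowest value outside day 1 was 1.303 times its highest day 1 value. Over the 7 lipid genes the mean at day 1 was 0.0331 to 0.458 of that in CK, with a median of 0.228, and day 2 overlapped CK in all 7.

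Annotations to phenolics and redox were carried by 3 of the lower genes. PchiChr10G287050 has the enzyme number of anthocyanidin synthase, which makes the coloured precursors of anthocyanins and the units of condensed tannins, and had 3.22, 6.74 and 4.52 FPKM at day 1, 9.65, 9.77 and 17.0 FPKM at day 2 and 11.6, 10.4 and 10.1 FPKM in CK. The dirigent-like gene PchiChr4G098130 had 0.449, 0.458 and 0.501 FPKM at day 1, 1.59, 1.49 and 1.25 FPKM at day 2 and 2.04, 2.41 and 3.37 FPKM in CK. Dirigent proteins steer the coupling of phenolic radicals to lignans, but the KEGG orthology entry of this gene is that of an aminoacyl-tRNA synthetase. PchiChr12G334580, with the enzyme number of ascorbate peroxidase, which removes hydrogen peroxide, had 28.8, 11.3 and 31.8 FPKM at day 1, 76.3, 46.3 and 88.4 FPKM at day 2 and 60.9, 51.0 and 48.0 FPKM in CK. Library 2 was the lowest at both days in this gene, whereas the dirigent-like gene was uniform within day 1.

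Of the lower genes 5 were described or annotated as regulators. R2R3MYB3, of the MYB family of transcription factors (PchiChr5G157260), had 0.982, 0.0979 and 1.09 FPKM at day 1, 2.39, 2.09 and 3.50 FPKM at day 2 and 4.74, 5.77 and 4.76 FPKM in CK. All day 2 libraries lay between the other groups, and the same held for a gene described as a leucine-rich repeat receptor-like kinase, of the surface receptors that phosphorylate signalling proteins (PchiChr4G101530). That kinase averaged 0.530 ± 0.299 FPKM at day 1, 1.55 ± 0.174 FPKM at day 2 and 2.68 ± 0.689 FPKM in CK (SD, n = 3 in each group), and it was the only member among 720 genes described as protein kinases or receptors. PchiChr9G270220 has the KEGG entry of a MAP kinase kinase, a middle step of stress signalling cascades, but GO terms for transcription, and had 1.48, 0.343 and 1.35 FPKM at day 1, 2.59, 3.21 and 2.76 FPKM at day 2 and 3.29, 6.26 and 3.93 FPKM in CK. All of its day 2 libraries were below CK, as held for 3 of the 5 regulators. Over the genes that reached 3 FPKM this held for 24.8%, a share that takes no account of day 1.

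In the other 2 regulators the day 2 libraries were not all below CK. The gene described as STERILE APETALA, named for a regulator of flower and organ growth in Arabidopsis (PchiChr1G035360), averaged 1.37 ± 0.212 FPKM at day 1, 2.73 ± 1.14 FPKM at day 2 and 3.08 ± 0.769 FPKM in CK (SD, n = 3 in each group). The gene described as an ion channel regulatory protein (PchiChr1G012420) had 6.41, 1.53 and 5.60 FPKM at day 1, 11.9, 14.1 and 9.64 FPKM at day 2 and 8.56, 8.98 and 8.47 FPKM in CK, with all day 2 libraries above CK.

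Among the remaining 11 lower genes, histone H2B, a core protein of chromatin (PchiChr2G059440), was uniform at day 1, with 1.79, 1.84 and 1.72 FPKM at day 1, 3.61, 3.17 and 3.72 FPKM at day 2 and 6.77, 4.45 and 3.57 FPKM in CK. Homoserine kinase, which feeds the synthesis of threonine and methionine (PchiChr6G182440), had 1.16, 1.18 and 1.35 FPKM at day 1, 3.81, 1.82 and 1.75 FPKM at day 2 and 7.26, 4.98 and 2.86 FPKM in CK. A homolog of VPS11, part of the complexes that tether vesicles to the vacuole (PchiChr10G292290), averaged 13.6 ± 2.51 FPKM at day 1, 23.8 ± 2.06 FPKM at day 2 and 24.1 ± 1.51 FPKM in CK (SD, n = 3 in each group), the mean ratio to CK nearest to 1 among the 34, at 0.564. A gene annotated to methylation (PchiChr7G204020) averaged 0.795 ± 0.316 FPKM at day 1, 2.76 ± 0.983 FPKM at day 2 and 2.68 ± 0.696 FPKM in CK (SD, n = 3 in each group). In these 4 genes the day 2 libraries overlapped CK.

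The genes with neither a GO term nor a KEGG entry nor an informative description numbered 6, with means of 0.706 to 22.6 FPKM at day 1, 1.49 to 48.0 FPKM at day 2 and 2.40 to 41.5 FPKM in CK. The most abundant of them, PchiChr4G105030, had 27.4, 13.5 and 26.9 FPKM at day 1, 46.7, 48.8 and 48.6 FPKM at day 2 and 45.4, 38.2 and 40.9 FPKM in CK. All of its day 2 libraries were above CK, by a small distance.

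PchiChr10G280640 (chromosome 10, block 1, 138756471 to 138773161), which has a GO term for embryo development, had the deepest change of the 47. It had counts of 0, 0 and 0 at day 1, 9, 8 and 15 at day 2 and 561, 573 and 285 in CK. Against a floor of 3 counts over the day 1 group, it was at least 455-fold lower at day 1 than in CK and at least 10.7-fold lower at day 1 than at day 2. Day 2 was also far below CK, with 0.0611 ± 0.0167 FPKM at day 2 and 2.71 ± 0.894 FPKM in CK (SD, n = 3 in each group).

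**Figure D4:**
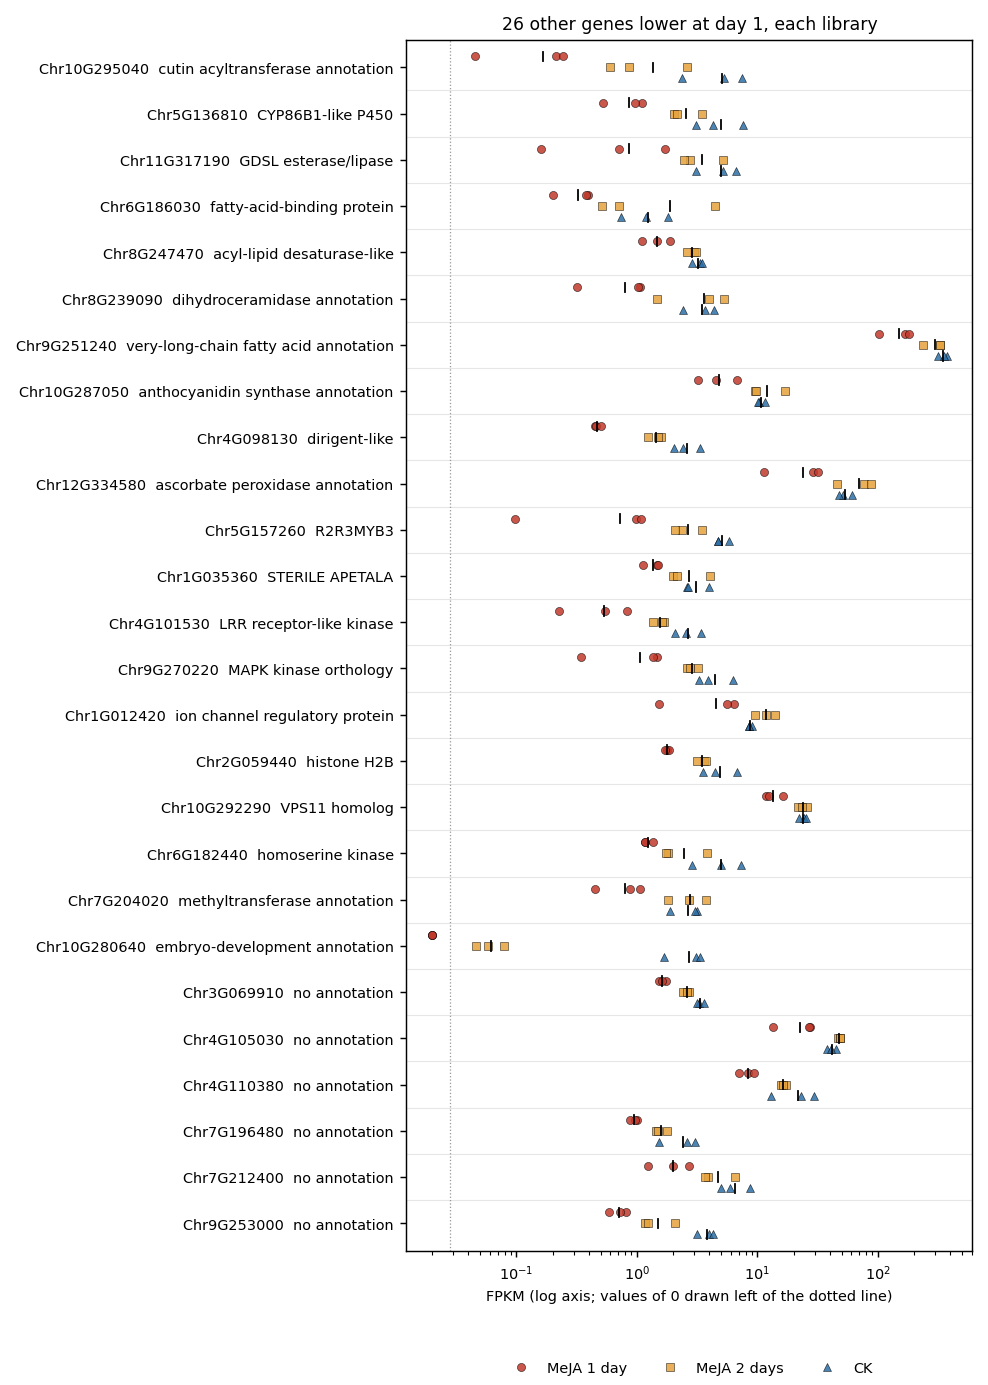
The 26 other genes lower at day 1, each with its FPKM in 3 libraries of MeJA 1 day (circles), MeJA 2 days (squares) and CK (triangles) on a log axis, with values of 0 left of the dotted line. Short black lines are group means. The squares lie near the triangles for most genes, and those of PchiChr10G280640 lie far left of its triangles, at a mean of 0.0611 against 2.71 FPKM.

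Whether the genes were back at the level of CK at day 2 was tested by edgeR over all genes. The rule does not compare day 2 with CK, but it limits their difference by placing both on the same side of day 1. The shares of all genes, which have no such limit, are therefore given for scale only. Of the 46 tested genes 2 were called, 1 higher and 1 lower, against 4.95% of all genes, 4.09% higher and 0.858% lower. A count of 2 in 46 is close to that background in this fit. Both counts move with the CK libraries: without CK libraries 1, 2 and 3, 1, 3 and 2 members and 48, 372 and 204 of all genes were called, so that the members' share was then above that of all genes. The sulfate transporter gene PchiChr6G174780 rose at day 2 to 43.2 ± 2.26 FPKM, against 9.74 ± 1.07 FPKM in CK (SD, n = 3 in each group). The log2 fold change was 2.27 with an SE of 0.17 (edgeR adjusted p = 0.00370). PchiChr10G280640 fell at day 2, by an estimate of -5.29 on the log2 scale with an SE of 0.48 (edgeR adjusted p = 0.00912), though without CK library 1 its adjusted p was 0.0504. For these 2 genes the data went against a shift at day 1 alone. Day 2 lay on the same side of CK as day 1 in both, nearer to day 1 on the log2 scale for the first.

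For the other 44 the test gave no call, which does not show that day 2 equals CK. An unadjusted p under 0.05 was found for 13 of the 46 (28.3%), against 24.7% of all genes. In the 12 tested higher genes the median log2 fold change at day 2 against CK was 0.97, with a range of -0.31 to 3.67, against 0.03 over all genes, and 10 of the 12 were positive. All 3 day 2 libraries lay above all CK libraries in 6 of the 13 higher genes, against 20.8% of the genes that reached 3 FPKM, and in 0 of the 13 they lay below. The 6 were CYP94P7, the SAUR gene, the defence-annotated PchiChr5G131260, the sulfate transporter and metal-binding genes, and PchiChr3G091600. In the 34 lower genes the median was -0.17, with a range of -5.29 to 0.82, and 14 were positive and 20 negative. Day 2 libraries lay all above CK in 3 of these, against the same 20.8%, and all below in 9, against 24.8%, and they overlapped CK in 22. Median log2 fold changes of all genes moved by no more than 0.01 between TMM, RLE and DESeq2 scaling.

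**Figure D5:**
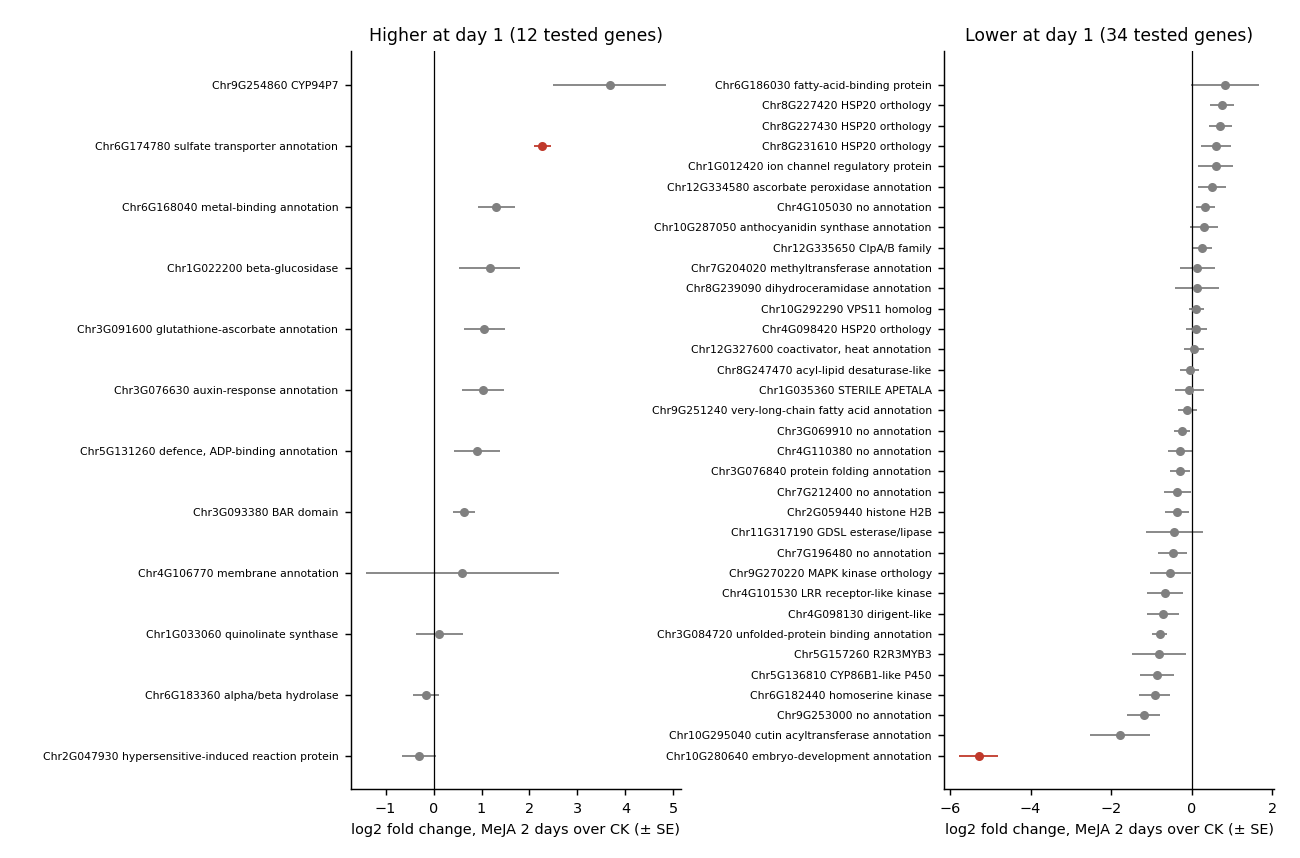
The log2 fold change of MeJA 2 days over CK with a standard error derived from its F statistic (edgeR, 9 libraries) for the 12 tested genes higher at day 1 and the 34 lower at day 1, ordered by size. Red points are the 2 genes with an adjusted p under 0.05, at 2.27 and -5.29, and the vertical line marks no difference.

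At the edge of the rule the choice was narrow. The smallest ratios of lowest day 1 to highest other value among the higher genes were 1.356 for PchiChr3G091600 and 1.364 for the sulfate transporter gene, and the nearest genes outside were PchiChr10G294850 at 1.293 and PchiChr3G079700 at 1.279. Among the lower genes the smallest ratios of lowest other to highest day 1 value were 1.303 for both PchiChr6G186030 and homoserine kinase, and the nearest outside were a sialyltransferase-like gene (PchiChr7G193300) at 1.295 and PchiChr6G178430 at 1.293. At the other end 9 of the 47 also met the rule with a margin of 2. These were PchiChr3G089420 and PchiChr4G106770 among the higher genes. Among the lower they were PchiChr10G280640, PchiChr10G295040, the dirigent-like gene, the coactivator PchiChr12G327600 and 3 of the small heat shock genes. No ratio exists for PchiChr3G089420 and PchiChr10G280640, whose values of 0 pass any margin. The lowest day 1 library of PchiChr3G089420 had only 4 counts. The 47 genes lay on all 12 chromosomes. Their spans in the genome ran from 651 to 133863 bases with a median of 3240, against 8089 for all genes that reached 3 FPKM. An informative description was lacking for 28 of them, where 58.0% of the genes that reached 3 FPKM lacked one, and 40 had a GO, KEGG pathway or KEGG orthology entry.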

How the data were processed

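PolyA RNA of 9 leaf libraries was profiled, 3 in each of 3 groups taken from the treatment labels, with replicate numbers from the titles. Per the labels' protocols, TRIzol served for extraction and the VAHTS Universal V6 kit for the libraries. The submitters' processing notes name fastp, HISAT2 and HTSeq. Their versions, the genome build, the annotation and any use of strand: not given in the sources used here. Reads of near-identical, overlapping or antisense genes cannot be told apart. Positions are those of the deposited table, where a second number was read as naming a chromosome block.

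The authors deposited estimated counts, rounded up to whole numbers, and FPKM values for each library. Set against FPKM, 532 low counts exceeded the proportional value by 0 to 1 in 100% of cases (tolerance 0.05, median excess 0.345), and no further rounding was done. For the deposited FPKM the denominator was not given in the sources used here. Roles come from the table's descriptions, GO terms, enzyme numbers and KEGG entries, which rest on matches to other species.

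The two-sided quasi-likelihood test of edgeR 4.0.16 (R 4.3.3) was run on all 9 libraries without covariates, after filterByExpr at a minimum count of 10 and with TMM factors between 0.878 and 1.09, with Benjamini-Hochberg adjustment over 22384 genes and a threshold of 0.05. DESeq2 1.42.0 and limma 3.58.1 on log2(FPKM + 1) and log2(FPKM + 0.1), for genes that reached 1 FPKM in 3 or more libraries, were alternatives, with RLE factors, no filter, fits of only the groups compared, a replicate block, and each library left out. The SE of each log2 fold change was its absolute value divided by the square root of the F statistic of edgeR's test. The count fit was tested on simulated data. Genes to be named were those with the widest gap, the highest level or a list membership among described genes, those called at day 2 against CK and those next to the margin. Other genes are named by their annotation and were chosen after their values were seen. The 47 genes, their rule and the lists were chosen with earlier results of these data known.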

Additional observations from a re-analysis of the deposited data

Results flagged for a closer look

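In 3 genes all day 1 libraries lay below all CK libraries and all day 2 libraries above them, so the days pointed to opposite sides of CK. They are the small heat shock gene PchiChr8G227430, whose day 2 mean was 3.01-fold its day 1 mean, the ion channel regulatory gene PchiChr1G012420 at 2.63-fold, and PchiChr4G105030, which has no annotation, at 2.13-fold. The difference between the days was not called by edgeR in any of them. That comparison is no test of these genes, because they were chosen on it. All 3 missed the rule with TMM scaling. At day 2 against CK their log2 fold changes were 0.71, 0.59 and 0.34 (edgeR adjusted p = 0.171, 0.437 and 0.420). The spread over day 1 libraries was 69.2, 37.9 and 43.4 FPKM for PchiChr8G227430, 6.41, 1.53 and 5.60 FPKM for PchiChr1G012420 and 27.4, 13.5 and 26.9 FPKM for PchiChr4G105030, with library 2 the lowest in each.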

How the results depend on the processing

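The number of genes meeting the rule (47) followed its settings: 378 with a margin of 1, 20 with 1.5 and 9 with 2, and 71 with a floor of 1 FPKM and 24 with 10. It was 54 with the heat shock descriptions kept and 49 with TMM scaling. Leaving out 1 library gave 49 to 215 genes: 144, 119 and 215 without day 1 libraries 1, 2 and 3, 117, 119 and 74 without day 2 libraries 1, 2 and 3, and 49 to 52 without a CK library. Of the members, 2 were called at day 2 against CK by edgeR, 6 by DESeq2, and 4 and 5 by limma with pseudocounts of 1 and 0.1. The count was 1 to 3 with libraries left out, 1 without CK library 1 and 3 without CK library 2 or day 1 library 2. PchiChr6G174780 kept its call in 16 of 16 alternatives (adjusted p up to 0.0398), and PchiChr10G280640 in 15 of 16, its adjusted p running up to 0.0504. Over all genes this comparison had 1107 calls by edgeR, 4012 by DESeq2, 1945 with only the groups compared and 48 to 2893 with libraries left out. Of these, 48, 372 and 204 were without CK libraries 1, 2 and 3, 665, 432 and 499 without day 2 libraries 1, 2 and 3, and 2893 without day 1 library 2. At day 1 against CK 24 members were called by edgeR, 41 by DESeq2, 13 with only the groups compared and 3 to 23 with libraries left out. The lowest of these were 4, 6 and 3 without CK libraries 1, 2 and 3, 11 without day 1 library 3 and 15 without day 2 library 3. Between day 2 and day 1 DESeq2 called 19 members, and every edgeR and limma alternative called 0. The causes were not tested. With the replicate number as a block, 15 members were called at day 1 against CK, 2 members and 865 genes at day 2 against CK and 0 members between the days. The numbers were not taken as pairs, since deviations of same-numbered libraries correlated across genes at -0.089, -0.123 and -0.095 between day 1 and CK, 0.140, 0.129 and -0.004 between day 2 and CK, and 0.307, -0.018 and 0.262 between day 2 and day 1. Depth limits the genes at 0 counts in a group, whose folds are bounds.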
